A study of Mus musculus with 32 samples.

Results

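Hematopoietic stem cells (HSCs) of mouse bone marrow were compared between 20 months and 10 weeks of age by RNA sequencing. The comparison holds the libraries that the labels give as HSCs, 2 at each age, which are 4 of the 32 libraries of the study. The other libraries come from multipotent progenitors (MPP1 to MPP4) and from the committed granulocyte-macrophage (GMP), megakaryocyte-erythrocyte (MEP) and common lymphoid (CLP) progenitors at the same ages, and serve here as a measure of spread and of lineage. All cells came from female C57BL/6 mice, for which the labels give no genetic change or treatment. The HSCs were sorted as Lin- cells that were CD150+, Sca-1+ and c-kit+ and were CD34-, Flt3-, CD48- and negative for a marker the labels spell IL-7. The groups are Young HSCs (10 weeks) and Aged HSCs (20 months). Marrow was pooled by age in one description of the study, while the duplicates are called independent elsewhere. The spread between duplicates may therefore leave out the variation from mouse to mouse, and every p-value given here measures only the spread between these libraries. The animals that were aged had been kept in the facilities of the study from 10 weeks on.

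HSCs sit at the top of the blood hierarchy. Most of them rest outside the cell cycle, divide rarely, and give rise through the MPPs to platelets, red cells, granulocytes, monocytes and lymphocytes. With age the pool of phenotypic HSCs is known to grow while its output shifts from lymphoid towards myeloid cells and platelets. In a sorted population, a change in RNA can come from a change in every cell or from a change in the share of a subset, and a bulk library cannot tell these apart.

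The HSC libraries held 11252143 and 14220196 counts in Young and 11801882 and 14535569 counts in Aged cells. Levels are given as CPM, read counts relative to a library's size after TMM scaling, and a count of 3, which a count of 0 still allows, was 0.196 to 0.243 CPM. Where values are set as a pair against a pair, both Young libraries come first and both Aged libraries second. These floors cover counting error only, since amplified reads without molecular identifiers are not independent molecules. The Aged duplicates stood further apart than the Young duplicates, with a chi-square statistic of 19.04 against 6.41 per gene. That statistic used raw counts scaled by library totals, without TMM. On TMM-scaled log2 levels the gap was small, with a root mean square difference between duplicates of 0.58 in Aged and 0.52 in Young cells. The second Aged library was higher than the first by 0.21 on the log2 scale (median) among genes in the shortest quartile of transcript length and differed by -0.15 in the longest quartile, while the same medians for Aged minus Young cells were 0.066 and -0.0030.

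The genes that define HSCs were present at both ages. Procr, the endothelial protein C receptor used to isolate HSCs, had 156 and 175 against 166 and 195 CPM, and its highest mean in another young fraction was 78.9 CPM in MPP1. Slamf1, which encodes the sorting antigen CD150, had 55.4 and 52.4 against 74.2 and 74.03 CPM. Hlf and Mecom, transcription factors of stem cells, had 714 and 649.7 against 524 and 499.9 CPM and 187 and 180.2 against 207 and 149 CPM. None of these 4 genes passed the test for age. Of the markers of lymphoid progenitors, T cells and eosinophils, Dntt, Rag1, Cd3e and Epx had 0 counts in all 4 libraries, while Il7r had 0 and 0 counts in the Young and 0 and 4 in the Aged libraries and Prg2 had 4 and 5 counts in the Young and 4 and 7 in the Aged libraries. The natural killer cell markers Klrb1c and Nkg7 were called higher and are described below. Of the stromal and endothelial markers, Lepr had 0 and 0 counts in the Young and 45 and 39 in the Aged libraries (edgeR adjusted p = 0.0447). Kdr had 12.3 and 10.4 against 23.4 and 21.6 CPM and Cxcl12 6.72 and 3.85 against 4.69 and 7.24 CPM. Col1a1 had 0 and 9 against 0 and 0 counts, and Cdh5 had none. Cd48, the antigen of MPPs that was gated out, had 1.05 and 1.04 against 1.25 and 2.21 CPM. Flt3, another antigen that was gated out, was detected at 29.3 and 26.5 against 17.8 and 13.8 CPM, while Young MPP4 had 1063 CPM.

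Across 14154 genes tested with the quasi-likelihood test of edgeR, 529 were called higher in Aged HSCs (3.74% of the genes tested) and 235 lower (1.66%), or 5.40% in either direction, at an adjusted p under 0.01. The genes that rose had a median log2 fold change of 0.85, with quartiles at 0.52 and 1.47, and in 89 of them it was 2 or more. The genes that fell had a median of -0.61, and 12 of them had -2 or less. The median over all genes was 0.020. The libraries of the ages did not overlap in any of the 529 higher and 235 lower genes. A lack of overlap in a called gene is thus shared by every call and adds no support to it. Its share over all genes is not given here. The spread in this fit was estimated over all 32 libraries. With the 4 HSC libraries alone, 161 genes were higher and 46 lower. With the other 31 libraries after leaving out the first or the second Young HSC library, 244 and 194 genes were higher and 135 and 139 lower, and without the first Aged HSC library 469 were higher and 372 lower.

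**Figure D1:**
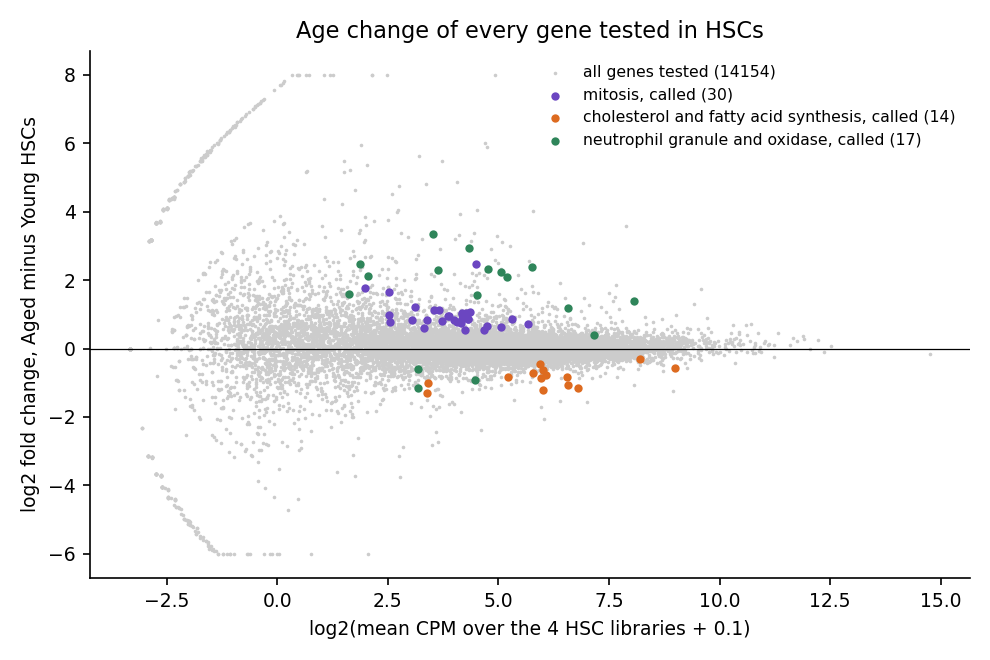
Age change of every gene tested. The horizontal axis gives the mean level over the 4 HSC libraries as log2(CPM + 0.1), the vertical axis the log2 fold change of Aged over Young HSCs, drawn between -6 and 8 with values beyond these limits set on them; grey points are the 14154 genes tested, and the curved rows of grey points at the left are genes without counts at one of the ages. The 30 called mitosis genes lie above 0, the 14 called cholesterol and fatty acid synthesis genes lie below 0, and the called neutrophil genes lie on both sides, 14 above and 3 below.

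Many genes of mitosis and DNA replication rose in Aged HSCs, most of them by small amounts. Of 59 mitosis genes tested, 30 rose (50.8%, against 3.74% of all genes) and 0 fell, with a median log2 fold change of 0.62 against 0.020 over all genes. At an unadjusted p under 0.05 there were 48 higher and 1 lower, and DESeq2 called 37 higher and 0 lower. Over all genes tested DESeq2 called 936 higher and 451 lower, more than edgeR. The numbers over all genes at an unadjusted p under 0.05 are not given here. Counts at that level, in this and later lists, are therefore no result about a list. Of 50 DNA replication genes, 18 rose (36%, against 3.74% of all genes) and 0 fell. At an unadjusted p under 0.05 these numbers were 36 and 0, and with DESeq2 29 and 0. A log2 fold change above 0 was found in 49 of the 50, against 52.7% of all genes tested.

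Mki67 (chr7:135689784-135716361, GRCm38), whose protein Ki-67 marks cycling cells, had 6.72 and 6.91 CPM in the Young and 41.4 and 34.97 CPM in the Aged libraries. Its log2 fold change was 2.48 ± 0.26 (SE) with an edgeR adjusted p of 1.37e-06, the largest fold change among the called mitosis genes. Birc5, which encodes the survivin subunit of the chromosomal passenger complex, had 11.4 and 12.1 CPM in the Young and 22.4 and 26.1 CPM in the Aged libraries. Spc24, a subunit of the kinetochore complex that holds microtubules, had 12.3 and 12.7 CPM in the Young and 25.7 and 25.4 CPM in the Aged libraries. In each of these 3 genes the Aged libraries lay above the Young libraries without overlap, and the log2 fold changes of Birc5 and Spc24 were 1.04 and 1.03. Ccna2, the cyclin of S and G2 phase, had 31.4 and 25.03 against 52.9 and 48.8 CPM, Plk1, a kinase that starts mitosis, 6.88 and 7.76 against 13.3 and 18.6 CPM, and Top2a, the topoisomerase that separates sister chromatids, 35.3 and 40.7 against 76.9 and 48.8 CPM. The duplicates of Top2a in Aged cells were far apart, but both lay above the Young libraries.

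**Figure D2:**
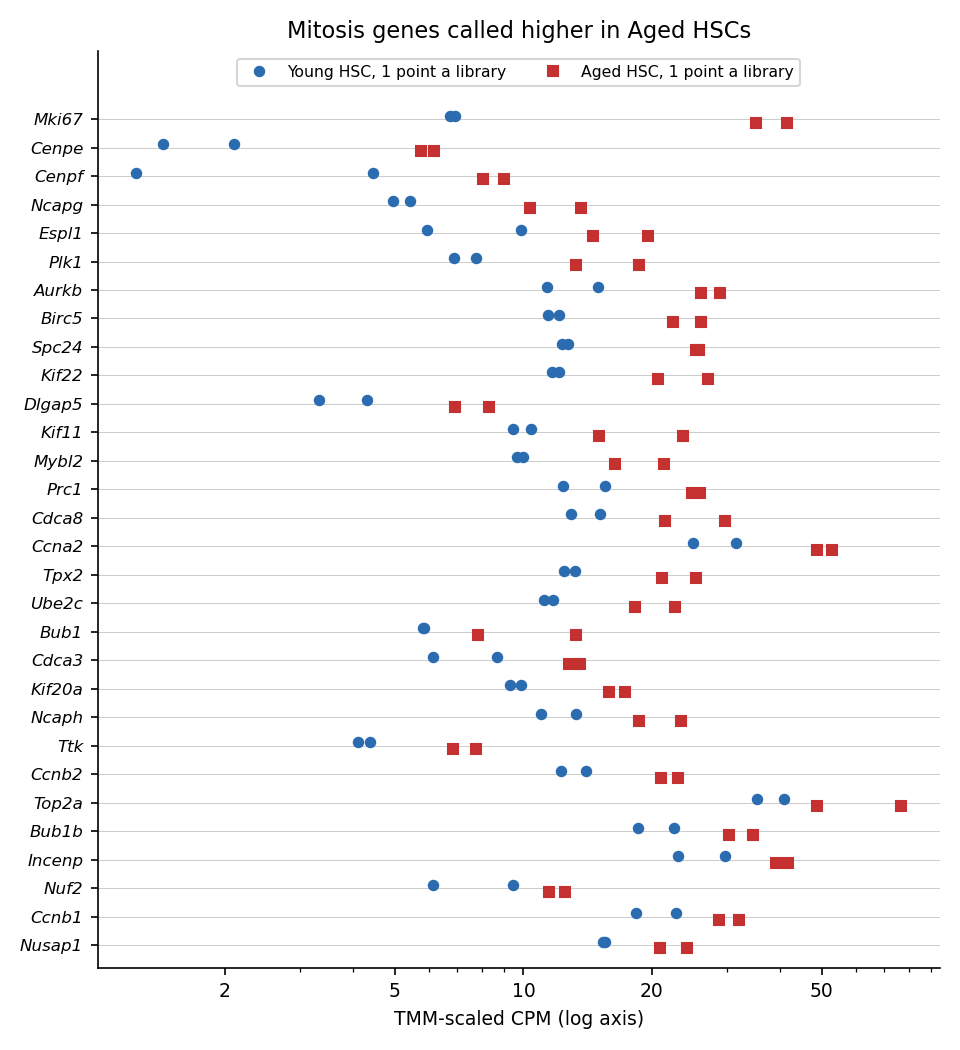
Levels of the 30 mitosis genes that were called higher, ordered by their log2 fold change with the largest at the top. The horizontal axis is TMM-scaled CPM on a log axis; circles are the 2 Young libraries and squares the 2 Aged libraries of each gene. Mki67, at the top, shows the widest separation, from 6.72 and 6.91 CPM to 41.4 and 34.97 CPM. The libraries of the ages do not overlap in any of the 30 genes, which holds for every called gene.

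In the replication list, Rrm2, the regulated subunit of ribonucleotide reductase, had 20.4 and 23.8 CPM in the Young and 39.6 and 45.6 CPM in the Aged libraries, with a log2 fold change of 0.94 ± 0.084 (edgeR adjusted p = 1.52e-07). Tyms, which makes thymidylate, had 28.2 and 29.7 against 51.9 and 56.8 CPM, and Mcm10, which helps to activate the replicative helicase, had 6.88 and 5.02 against 16.5 and 14.5 CPM. These 3 genes rose by 0.94, 0.91 and 1.39 on the log2 scale, and their ages did not overlap. The levels stayed far under those of dividing progenitors. The summed level of the mitosis list was 1116 and 1083 CPM in the Young and 1518 and 1514 CPM in the Aged libraries, against 11567 CPM in Young CLPs, the highest young fraction. For the replication list it was 3594 and 3584 CPM in the Young and 4377 and 4464 CPM in the Aged libraries, against 18066 CPM in Young MEPs.

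The regulators of G1 phase moved in both directions. Of 32 cyclins, kinases, E2F factors and pocket proteins, 5 rose (15.6%) and 1 fell (3.13%), against 3.74% and 1.66% of all genes. Cdk6, the kinase that controls exit from quiescence in HSCs, had 18.7 and 19.9 CPM in the Young and 32.8 and 29.7 CPM in the Aged libraries, a log2 fold change of 0.69 ± 0.13 (edgeR adjusted p = 8.597e-04). E2f7 and E2f8, repressors within the E2F family, rose by 1.23 and 1.34 on the log2 scale. Ccnd2, the D-type cyclin with the highest level of these genes that moved, fell from 533 and 492 CPM to 302 and 352 CPM. Among 6 inhibitors of cyclin-dependent kinases tested, Cdkn2c (p18) rose from 8.09 and 6.45 CPM to 26.8 and 28 CPM, a log2 fold change of 1.92 ± 0.12 (edgeR adjusted p = 6.59e-10), and Cdkn1a (p21) rose by 0.55. Genes that promote and genes that restrain the cycle thus rose side by side. Cdkn1c (p57), an inhibitor abundant in resting HSCs, had 138 and 132 against 104 and 116 CPM and did not pass the test (edgeR adjusted p = 0.513).

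Of 64 clustered histone genes 11 rose, or 17.2% against 3.74% of all genes (0 fell, 3 at an unadjusted p under 0.05 and 0 with DESeq2). All 11 were near-identical H2A genes whose reads the counting could not place with certainty. Of 60 DNA repair genes, 5 rose (8.33%, against 3.74% of all genes), among them Fanca, Fancd2, Brca2 and Rad54l. Fancd2, of the Fanconi anemia pathway, had 2.51 and 3.06 against 7.11 and 5.02 CPM. None of the 60 fell by either edgeR or DESeq2, and 0 had an unadjusted p under 0.05 with a negative change.

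The calls in these lists depended on how the spread was estimated. With the 4 HSC libraries alone, 1 of the 59 mitosis genes (Mki67) and 1 of the 50 replication genes were called, while the medians were 0.58 and 0.28. Leaving out 1 HSC library at a time called between 17 and 25 mitosis genes and between 9 and 16 replication genes higher, both fewest without the second Young library. Without that library 0 of the histone genes, 3 of the repair genes and 2 of the 32 G1 regulators were higher. The fewest without any 1 library were 0 histone genes, 2 repair genes and 2 G1 regulators, and 1 of the 6 inhibitors was higher without the first Young, the second Young or the second Aged library.

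Genes of late cell cycle are known to carry in their promoters a short element called CHR, often with CCAAT boxes nearby. Windows from 250 bases before to 50 bases after the start were taken from RefSeq (GRCm38.p6) for 11225 of the tested genes. The letters TTTGAA were searched on both strands, a choice made after the values were seen. They stood in the window of 15 of the 24 called mitosis genes with a window (62.5%), of 1 of 15 called replication genes, and of 14.7% of all genes with a window. Counted by window, they stood in 12.5% of 14251 windows. The letters CCAAT stood in 19 of the 24 and in 42.8% of all genes. The stretches below are the 100 bases before the start of 3 called mitosis genes that hold TTTGAA or its reverse complement there and lie outside the annotated gene. Capitals mark these letters and CCAAT or its reverse complement. The stretch of Mki67 is chr7:135716380-135716479 on the minus strand, that of Kif11, a spindle motor, is chr19:37376282-37376381 on the plus strand, and that of Top2a is chr11:99024190-99024289 on the minus strand.
Mki67: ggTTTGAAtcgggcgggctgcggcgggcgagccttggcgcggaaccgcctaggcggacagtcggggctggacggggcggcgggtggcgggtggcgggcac
Kif11: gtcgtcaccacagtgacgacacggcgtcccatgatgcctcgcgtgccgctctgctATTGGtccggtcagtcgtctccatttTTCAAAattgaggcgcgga
Top2a: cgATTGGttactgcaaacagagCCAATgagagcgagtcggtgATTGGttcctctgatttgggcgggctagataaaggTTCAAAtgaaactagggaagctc
In Kif11 and Top2a the element ends 13 and 17 bases before the start, and in Mki67 it ends 92 bases before it, without a CCAAT box in the stretch. A match of letters is a description and not a binding site.

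Of 46 genes for making cholesterol and fatty acids, 14 fell (30.4%, against 1.66% of all genes) and 0 rose. A rise at an unadjusted p under 0.05 was found in 2, and DESeq2 called 1 higher and 18 lower. The median log2 fold change of these 46 genes was -0.33. These enzymes share the control by sterol regulatory element binding proteins, which raise their transcription when the membranes of the cell are low in sterol. The summed level was 4470.1 and 4402 CPM in the Young and 3528 and 3572 CPM in the Aged libraries.

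Sqle (chr15:59315077-59331192), which encodes squalene epoxidase, a rate-limiting step after the mevalonate pathway, had 129.6 and 126 CPM in the Young and 60.04 and 62.8 CPM in the Aged libraries. Its log2 fold change was -1.06 ± 0.10 (edgeR adjusted p = 5.28e-07). The duplicates lay close together at each age, and the ages did not overlap.

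The genes that fell belong to early and late steps of the pathway. Hmgcs1, which commits acetyl units to the mevalonate pathway, had 47.8 and 46.99 against 31.98 and 21.9 CPM. The enzymes Mvd, Idi1 and Fdps, which build the isoprenoid units, had log2 fold changes of -1.29, -0.76 and -0.70. Cyp51, Msmo1, Hsd17b7 and Dhcr7, which turn lanosterol into cholesterol, had -0.87, -1.205, -1.02 and -0.64. Insig1, which retains the regulators of the pathway in the endoplasmic reticulum and is itself one of their targets, had 119.5 and 122 against 66.1 and 68.9 CPM. On the side of fatty acids, Scd2, a desaturase, had 611 and 598 against 412 and 409.9 CPM (log2 fold change -0.56 ± 0.057, edgeR adjusted p = 9.77e-07), and Acly, which supplies cytosolic acetyl-CoA, had 329.7 and 319 against 276 and 245 CPM. Not every step moved past the threshold. Srebf2, the main sterol regulator, had 456 and 422 against 297 and 363 CPM (edgeR adjusted p = 0.01103), and Fasn, fatty acid synthase, had 261 and 253 against 227 and 231 CPM (edgeR adjusted p = 0.469). The libraries of the ages did not overlap in Srebf2 or Fasn. Both genes were picked after their values were seen.

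**Figure D3:**
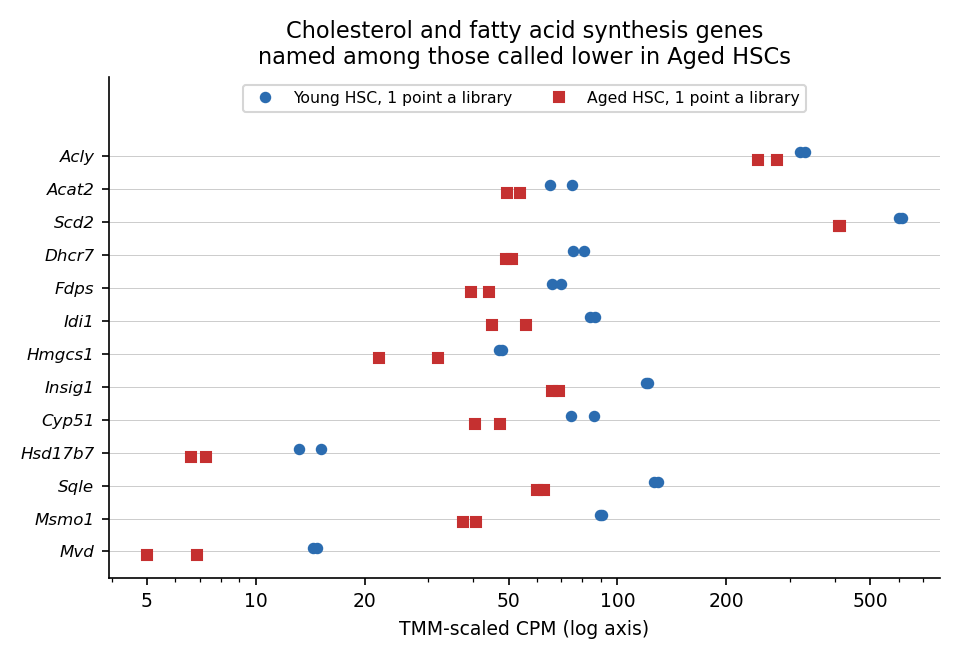
Levels of 13 of the 14 cholesterol and fatty acid synthesis genes that were called lower, ordered by their log2 fold change with the largest fall at the bottom. The horizontal axis is TMM-scaled CPM on a log axis; circles are the 2 Young libraries and squares the 2 Aged libraries. Both Aged libraries lie to the left of both Young libraries in each gene drawn, from Mvd at the bottom (14.8 and 14.4 against 5.004 and 6.901 CPM) to Acly at the top (329.7 and 319 against 276 and 245 CPM).

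Leaving out 1 library at a time called 12 to 14 of the 46 genes lower, and the 4 HSC libraries alone gave 4, among them Sqle, Msmo1 and Insig1. The letters TCACNCCAC, a form of the sterol regulatory element, were searched after the values were seen. They stood in 1 of the 10 called genes with a window, Hmgcs1, and in 1.39% of all genes with a window, while CCAAT stood in 9 of the 10. Sqle, Scd2 and Fdps had no window in the table. The stretch of Hmgcs1 that holds the element is chr13:119690151-119690250 (GRCm38.p6, plus strand), with the element and the reverse complement of CCAAT in capitals, and the element ends 128 bases before the start.
Hmgcs1: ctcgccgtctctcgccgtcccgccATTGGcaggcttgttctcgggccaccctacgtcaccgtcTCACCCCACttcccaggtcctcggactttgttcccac

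Of 33 neutrophil granule and oxidase genes tested, 14 rose (42.4%, against 3.74% of all genes) and 3 fell (9.09%, against 1.66%), with a median log2 fold change of 1.17. This median was 0.47 without the second Aged library, 0.77 without the first Young library and 0.82 with the 4 HSC libraries alone. The genes that rose include those of the secondary and tertiary granules and the cytosol of maturing neutrophils. Camp, which encodes the antimicrobial peptide cathelicidin, had 4.61 and 4.69 CPM in the Young and 30.8 and 40.2 CPM in the Aged libraries. Ngp, neutrophilic granule protein, had 16.7 and 18.2 CPM in the Young and 87.6 and 94 CPM in the Aged libraries, and Ltf, lactoferrin, had 9.39 and 8.799 CPM in the Young and 41.6 and 48.5 CPM in the Aged libraries. All 3 rose without overlap, by 2.93 ± 0.33, 2.38 ± 0.26 and 2.31 ± 0.38 on the log2 scale (edgeR adjusted p = 2.93e-06, 4.18e-06 and 3.83e-04). S100a8 and S100a9, the subunits of calprotectin, rose from 13.7 and 13.9 to 56.5 and 61.7 CPM and from 10.1 and 13.04 to 54.2 and 55.4 CPM. Chil3, a chitinase-like protein, had 2.59 and 1.56 against 20.95 and 20.7 CPM.

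The primary granule genes of immature granulocytes differed among themselves. Mpo, myeloperoxidase, had 59.2 and 64.1 against 30.6 and 64.05 CPM and Elane, neutrophil elastase, 17.9 and 16.5 against 4.46 and 10.5 CPM, and neither passed the test (edgeR adjusted p = 0.645 and 0.112). In Young GMPs they stood at 69001 and 14498 CPM. Prtn3, proteinase 3, stored in the same granules, had 139 and 154 CPM in the Young and 328 and 443 CPM in the Aged libraries and rose by 1.396 ± 0.16 on the log2 scale (edgeR adjusted p = 4.66e-06). Csf3r, the receptor of granulocyte colony stimulating factor, had 63.9 and 54.1 CPM in the Young and 117 and 148 CPM in the Aged libraries, and Itgam, which encodes CD11b, had 10.9 and 11.9 against 38.5 and 29.3 CPM. Ncf1 and Ncf4, subunits of the phagocyte oxidase, and Gfi1, a repressor needed both for HSC quiescence and for granulocytes, fell, with log2 fold changes of -1.16, -0.59 and -0.92. The summed level of the list was 2083 and 2298 CPM in the Young and 2693 and 3129 CPM in the Aged libraries against 98284 CPM in Young GMPs, and every tested member had counts in at least 1 HSC library. Leaving out 1 library at a time called 10 to 13 genes of the list higher and 1 to 3 lower, and the 4 HSC libraries alone gave 11 and 0. Whether RNA of maturing neutrophils in the Aged samples had a part in these rises was not tested.

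**Figure D4:**
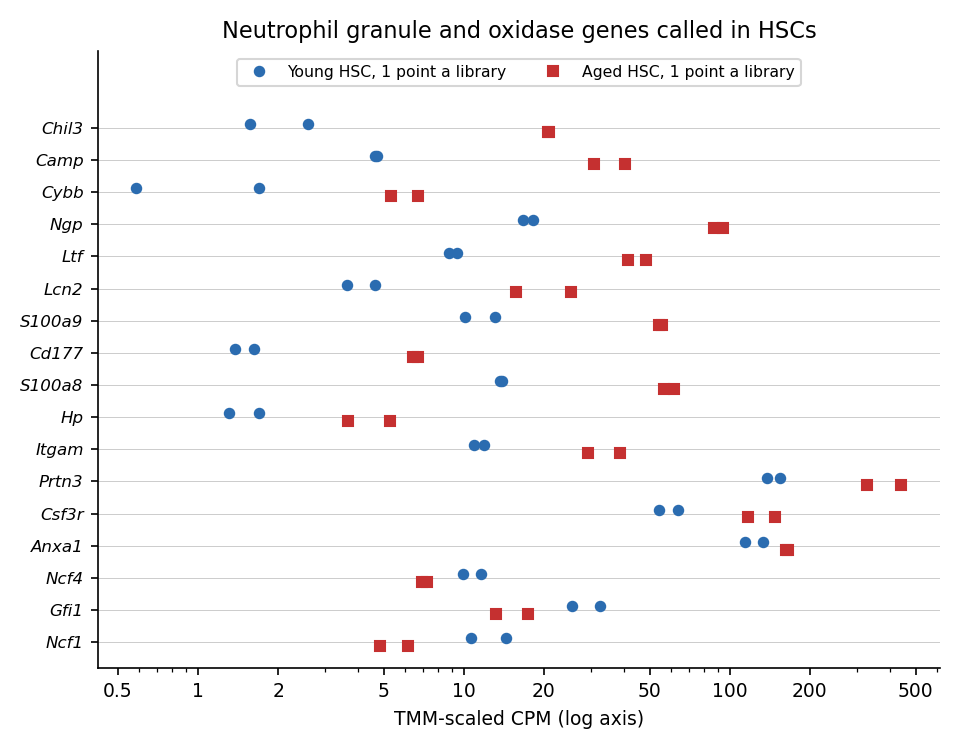
Levels of the 17 neutrophil granule and oxidase genes that were called, ordered by their log2 fold change with the largest rise at the top. The horizontal axis is TMM-scaled CPM on a log axis; circles are the 2 Young libraries and squares the 2 Aged libraries. In the upper 14 genes the Aged libraries lie to the right of the Young libraries, and in Ncf4, Gfi1 and Ncf1 at the bottom they lie to the left.

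Among 24 myeloid transcription factors 4 rose (16.7%) and 1 fell (4.17%), against 3.74% and 1.66% of all genes, with a median of 0.036. The number higher was 1 without the first Young library, 2 without the second Young or the second Aged library, and 2 with the 4 HSC libraries alone. Cebpd, a C/EBP factor of stressed and maturing myeloid cells, had 7.85 and 8.93 CPM in the Young and 27.1 and 31.96 CPM in the Aged libraries, a log2 fold change of 1.81 ± 0.17 (edgeR adjusted p = 2.64e-07). Id2, an inhibitor of E proteins, had 10.2 and 11.99 against 21.4 and 23.9 CPM and Maf 0.728 and 1.04 against 2.97 and 3.82 CPM. Cytokine and growth factor receptors changed in 6 of 41, with 9.76% higher and 4.88% lower, against 3.74% and 1.66% of all genes. Osmr, the oncostatin M receptor, rose from 0.162 and 0.326 to 7.896 and 4.82 CPM, Il1r1, the interleukin-1 receptor, from 10.2 and 8.08 to 19.9 and 13.6 CPM, and Il2rg, the common gamma chain, by 0.49 on the log2 scale. Il6ra, the interleukin-6 receptor, and Flt3 fell, with -0.84 and -0.82. Leaving out 1 library at a time left 1 to 3 calls in the receptor list, with 1 higher and 0 lower without the first Young library.

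The macrophage and iron recycling list went mainly the other way, with 3 genes higher and 6 lower of 36 (1 or 2 higher and 5 or 6 lower without 1 library). With all libraries 8.33% of the list was higher and 16.7% lower, against 3.74% and 1.66% of all genes. Slc40a1, the iron exporter ferroportin, had 16.8 and 21.1 against 6.96 and 4.76 CPM, Hmox1, heme oxygenase, 21.9 and 24.1 against 6.25 and 9.38 CPM, Trf, transferrin, 67.7 and 66.3 against 37.1 and 45.7 CPM, and Fcna, a ficolin of macrophages, 4.53 and 5.47 against 0.938 and 1.54 CPM. All of them fell, with log2 fold changes of -1.71, -1.55, -0.69 and -1.99, and the libraries of the ages did not overlap. C1qa and C1qb, complement genes that define tissue macrophages, had 6.96 and 7.76 against 3.05 and 4.62 CPM and 5.99 and 8.54 against 5.24 and 7.64 CPM and did not pass the test. Fcgr4, an Fc receptor, had 0 and 0 counts in the Young and 48 and 82 in the Aged libraries, a rise of at least 4.399 on the log2 scale against the floor of 3 counts per library. The summed level of the list was 2292 and 2464 CPM in the Young and 2559 and 3055 CPM in the Aged libraries, higher in the Aged libraries, and Ctsd, the lysosomal protease cathepsin D, had 479 and 485 against 558 and 635 CPM. The part of macrophage RNA in these changes was not tested.

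The megakaryocyte and platelet list had 6 of 41 genes higher and 0 lower (10 and 7 at an unadjusted p under 0.05, 7 and 3 with DESeq2), with a median of 0.20. By edgeR 14.6% were higher, against 3.74% of all genes. The median was 0.054 without the first Young library, 0.074 without the first Aged library and 0.12 without the second Aged library. Plek, pleckstrin, the main substrate of protein kinase C in platelets, had 14.7 and 15.1 CPM in the Young and 100.5 and 75.04 CPM in the Aged libraries, and Sdpr, a caveolar protein, had 34.4 and 35.8 CPM in the Young and 145 and 120.0 CPM in the Aged libraries. Vwf, von Willebrand factor, whose expression marks platelet-biased HSCs, had 225 and 218 CPM in the Young and 400.1 and 437 CPM in the Aged libraries. The rises of these 3 genes were 2.56 ± 0.20, 1.91 ± 0.34 and 0.92 ± 0.20 on the log2 scale (edgeR adjusted p = 2.897e-08, 6.22e-04 and 0.00414). Itga2b and Itgb3, the chains of the fibrinogen receptor, had 64.6 and 57.5 against 114 and 123 CPM and 43.3 and 38.1 against 101 and 92.99 CPM. Pf4 and Gp9, further platelet genes, had 15.6 and 16.5 against 8.99 and 12.7 CPM and 31.6 and 37.2 against 25.2 and 32.2 CPM and did not pass the test. Leaving out 1 library at a time called 2 to 4 genes of the list higher, the fewest without the second Young library, where 1 was called lower.

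Of 38 integrins and other genes of adhesion to the niche, 10 rose (26.3%) and 4 fell (10.5%), against 3.74% and 1.66% of all genes. Jam2, a junctional adhesion molecule, had 28.5 and 29.5 CPM in the Young and 89.3 and 88.8 CPM in the Aged libraries, a log2 fold change of 1.62 ± 0.22 (edgeR adjusted p = 7.5e-05). Alcam, a ligand of CD6, had 27.7 and 18.2 against 55.8 and 45.96 CPM. Cd44, a receptor of hyaluronan, had 145 and 139 against 110.3 and 105 CPM, and Itga9, an integrin alpha chain, had 16.03 and 12.6 against 5.004 and 3.75 CPM. The fall of Itga9 was -1.71 ± 0.37 on the log2 scale (edgeR adjusted p = 0.00521). The integrin chains thus moved in opposite directions, with Itga2b, Itga6, Itgam, Itgb3 and Itgb7 higher and Itga9 and Itgb5 lower. Without the second Young library 4 genes of the list were called higher and 3 lower, and without the first Aged library 6 and 3.

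Of 44 lymphoid priming and B lineage genes tested, 6 fell and 0 rose (1 and 0 in the positive direction at an unadjusted p under 0.05 and with DESeq2). By edgeR 13.6% were lower, against 1.66% of all genes. Ltb, lymphotoxin beta, had 358 and 372 CPM in the Young and 161 and 187 CPM in the Aged libraries. Satb1, a chromatin organizer that promotes lymphoid fate, had 16.4 and 20.3 CPM in the Young and 7.27 and 7.03 CPM in the Aged libraries, and Sox4, a factor of early B cells that HSCs express strongly, had 362 and 322 CPM in the Young and 214 and 239.8 CPM in the Aged libraries. Their log2 fold changes were -1.07 ± 0.12, -1.36 ± 0.17 and -0.59 ± 0.10 (edgeR adjusted p = 2.01e-06, 1.08e-05 and 6.71e-04). Tnfrsf13c, which encodes the receptor of the B cell survival factor BAFF, had 26.2 and 24.5 against 9.85 and 11.3 CPM and fell as well, outside that list. The median of the list was 0, with 13 of its members above 0, 19 below and the rest at 0. In the fit of the 4 HSC libraries alone, which kept 21 members, the median was -0.24.

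Erythroid genes had 2 of 41 higher (4.88%, against 3.74% of all genes) and 2 lower. The number higher was 0 without the second Young library, without the first Aged library and with the 4 HSC libraries alone. Mfsd2b, the sphingosine-1-phosphate exporter of red cells and platelets, had 1.62 and 2.93 against 7.896 and 8.11 CPM, and Gypc, glycophorin C, 185 and 180.5 against 128 and 135 CPM. Gata1 and Klf1, the defining factors of the lineage, had 5.099 and 3.19 against 4.61 and 4.76 CPM and 2.19 and 2.35 against 2.11 and 2.81 CPM, while Young MEPs had 431 and 1002 CPM, and neither passed the test for age (edgeR adjusted p = 0.705 and 0.906). The basophil and mast cell genes Mcpt8, Fcer1a and Cpa3 rose. Mcpt8, a basophil protease, had 0 and 0 counts in the Young and 19 and 38 in the Aged libraries, a rise of at least 3.201 on the log2 scale against the floor, and Fcer1a, the high-affinity IgE receptor, had 0 and 0 counts in the Young and 10 and 19 in the Aged libraries, a rise of at least 2.23. Cpa3, mast cell carboxypeptidase, had 1.295 and 0.978 against 2.81 and 2.21 CPM. These levels were low, and 4 of the 28 genes of the list were called, or 2 without the first and 2 without the second Young library. With all libraries 14.3% of the list was called higher, against 3.74% of all genes. The summed level of the list was 1732 and 1653 CPM in the Young and 1629 and 1517 CPM in the Aged libraries, lower in Aged cells. Klrb1c and Nkg7, known from natural killer cells, had 23.6 and 18.6 against 67.9 and 73.2 CPM and 5.91 and 7.89 against 12.9 and 18.2 CPM and rose. Klrb1c was highest in HSCs, and the next young fraction, MPP1, had 4.18 CPM.

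Lineage programs were also taken from the young progenitors themselves, without any HSC library. A gene was put in the program of GMPs, MEPs or CLPs where its young level was at least 2 on the log2 scale above both others, and in that of MPP2, MPP3 or MPP4 where it was at least 1 above both others. Of 157 genes of the MPP2 program, 12 rose and 0 fell in Aged HSCs, and the median log2 fold change was 0.41, or 0.21 without the first and 0.28 without the second Aged library. The genes of this program with the smallest p were Aldh1a1, Abca4 and Nupr1, and Itga2b, Vwf and Itgb3 were among the 12. The summed level of the program was 2535 and 2558 CPM in the Young and 3614 and 3918 CPM in the Aged libraries, and both Aged libraries lay above both Young libraries. In the MPP3 program 8 of 185 were higher and 0 lower, a share of 4.32% against 3.74% of all genes. The median was 0.0067, but only 52 of the 185 had at least 1 CPM in HSCs. Over these 52 genes the median was 0.74, against 0.47 over the 98 such genes of the MPP2 program and 0.025 over all such genes. The cut used HSC levels of both ages, so a gene near the floor in Young cells could pass through its Aged level alone. This by itself can raise the median, which is therefore no result about the program. The summed level of the MPP3 program was 550 and 519 CPM in the Young and 756 and 675 CPM in the Aged libraries. In the MPP4 program, that of lymphoid-primed progenitors, 12 rose and 14 fell of 293, or 4.096% and 4.78% against 3.74% and 1.66% of all genes. The 14 that fell included Dusp2, Satb1, Camk1d, Shisa8 and Flt3. Shisa8 had 93.97 and 98.2 against 29.9 and 28.4 CPM and Camk1d 15.3 and 19.2 against 6.802 and 4.09 CPM. Among the committed programs, 22 rose and 10 fell of 403 GMP genes (5.46% and 2.48%), 30 and 5 of 451 MEP genes (6.65% and 1.11%), and 56 and 25 of 1251 CLP genes (4.48% and 1.998%). Their medians were 0.027, 0.043 and 0, close to the 0.020 of all genes.

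Of 70 antioxidant and detoxification genes tested, 8 rose and 4 fell, or 8 and 2 without the second Young library. With all libraries 11.4% of the list was higher and 5.71% lower, against 3.74% and 1.66% of all genes. Mt1, a metallothionein that binds zinc, had 6.23 and 5.47 CPM in the Young and 51.9 and 61.2 CPM in the Aged libraries, a log2 fold change of 3.28 ± 0.14 (edgeR adjusted p = 1.604e-12). Its relative Mt2 had 0.324 and 0.587 against 10.5 and 15.1 CPM. Gpx3, the secreted glutathione peroxidase, had 8.499 and 7.82 CPM in the Young and 31.6 and 41.1 CPM in the Aged libraries, a rise of 2.16 ± 0.21 (edgeR adjusted p = 5.903e-07), and Aldh1a1, which oxidizes retinaldehyde, had 87.98 and 86.7 against 328 and 310.2 CPM. Cat, catalase, moved the other way, with 259 and 269 CPM in the Young and 146 and 151 CPM in the Aged libraries, a log2 fold change of -0.83 ± 0.063 (edgeR adjusted p = 1.81e-08). Enzymes that remove peroxide were thus found on both sides, with Gpx3 and Prdx1 higher and Cat lower.

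Among AP-1 and other immediate early genes, 6 rose and 1 fell of 45 (13 higher and 2 lower with DESeq2). By edgeR 13.3% were higher and 2.22% lower, against 3.74% and 1.66% of all genes. A change above 0 was found in 35 of the 45, against 52.7% of all genes tested. Gadd45g, a stress sensor, had 8.58 and 9.19 CPM in the Young and 30.9 and 38.3 CPM in the Aged libraries and Atf3, an ATF family factor of the stress response, had 9.07 and 11.3 CPM in the Young and 36.1 and 35.3 CPM in the Aged libraries. Their log2 fold changes were 1.96 ± 0.20 and 1.81 ± 0.27 (edgeR adjusted p = 8.04e-07 and 2.41e-04). Jun had 1311 and 1219.9 against 2059 and 2123 CPM (edgeR adjusted p = 0.0139), and Fos and Egr1, which are quickly induced when tissue is dissociated, had 4414 and 4345 against 4917 and 5419.5 CPM and 4349.5 and 4074 against 3868 and 4557 CPM (edgeR adjusted p = 0.586 and 1). Dusp2, a phosphatase of MAP kinases and itself an immediate early gene, fell, with 688 and 699.7 against 260.5 and 324 CPM. Hspa1a and Hspa1b, near-identical heat shock genes, were called higher, but the counting could not separate them. Without the first Young library 1 gene of the list was called higher, and without the second 3.

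Of 31 MHC presentation genes 2 rose and 0 fell (15 and 1 at an unadjusted p under 0.05, 4 and 0 with DESeq2). By edgeR 6.45% were higher, against 3.74% of all genes. The number higher was 6 without the first Aged library and 1 without any other. The genes called were H2-Ab1 and H2-Eb1, which encode beta chains of the class II molecules. The genes had 126 and 138 against 258 and 329.6 CPM and 63.3 and 66.4 against 159.7 and 199 CPM, log2 fold changes of 1.15 ± 0.18 and 1.47 ± 0.32 (edgeR adjusted p = 1.38e-04 and 0.00432). They are close relatives of other class II genes and their counts carry that uncertainty. Interferon-stimulated genes had 4 of 60 higher (6.67%) and 0 lower (10 and 2 at an unadjusted p under 0.05, 6 and 0 with DESeq2; 1 higher without the first Young library and 2 without the second Aged library), with a median of 0.071. Slfn2, which keeps lymphocytes quiescent, had 50.1 and 57.7 against 106 and 102 CPM, and Ifi27 81.2 and 79.3 against 119 and 143 CPM. In the list of NF-kB, Toll-like receptor and inflammasome genes, Bcl3 and Casp1 were called higher out of 46 (4.35%, against 3.74% of all genes). None of the 46 was called higher without the second Young library, without the second Aged library or with the 4 HSC libraries alone.

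Among signalling genes, Bmpr1a, a type I receptor of bone morphogenetic proteins, had 2.02 and 3.91 CPM in the Young and 25.8 and 19.2 CPM in the Aged libraries, a log2 fold change of 2.898 ± 0.41 (edgeR adjusted p = 8.71e-05). Smad7, an inhibitor of the TGF-beta pathway that the pathway itself induces, had 141 and 137 CPM in the Young and 81.7 and 86.3 CPM in the Aged libraries and fell, with a log2 fold change of -0.73. In the list of 42 TGF-beta and BMP genes, Id2 was the only other gene called. The shares of that list were 4.76% higher and 2.38% lower, against 3.74% and 1.66% of all genes. Of 44 Notch and Wnt pathway genes, Ror2, a receptor of noncanonical Wnt ligands, rose from 4.86 and 3.32 to 20.4 and 20.5 CPM. Hes1 and Nrarp, targets of Notch, fell, so that 2.27% of the list was higher and 4.55% lower. Hes1 had 115 and 123 CPM in the Young and 76.5 and 79.3 CPM in the Aged libraries and Nrarp 38.9 and 40.5 CPM in the Young and 21.97 and 26.9 CPM in the Aged libraries, with log2 fold changes of -0.61 ± 0.11 and -0.70 ± 0.15 (edgeR adjusted p = 0.00141 and 0.00431). None of the genes in the Notch and Wnt list was called without the second Young library.

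The enzymes that write DNA methylation split by function. Dnmt1, which copies methylation after replication, had 163 and 151 CPM in the Young and 239 and 229 CPM in the Aged libraries, and Uhrf1, which recruits it, had 84.7 and 83.4 CPM in the Young and 135 and 134 CPM in the Aged libraries. Dnmt3a, which sets new methylation and restrains HSC self-renewal, had 80.7 and 79 CPM in the Young and 50.04 and 60.1 CPM in the Aged libraries, and its relative Dnmt3b had 69.5 and 65.6 against 46.1 and 51.5 CPM. The maintenance genes rose by 0.58 ± 0.086 and 0.68 ± 0.064, and the genes of new methylation had log2 fold changes of -0.53 ± 0.096 and -0.47 ± 0.11 (edgeR adjusted p = 1.099e-04, 2.87e-07, 7.9e-04 and 0.00771). In all 4 genes the ages did not overlap. These were the 4 genes called of 18 in the list, 11.1% higher and 11.1% lower, against 3.74% and 1.66% of all genes. With the 4 HSC libraries alone none of the 4 was called, and leaving out 1 library left 2 or 3 calls in the list. Among 66 other chromatin regulators 2 rose, Smarca4 and Ezh2, and 2 fell, Satb1 and Cbx6, and the rises depended on which libraries were kept. Both shares were 3.03%, against 3.74% higher and 1.66% lower of all genes.

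Of 35 stem cell transcription regulators, 1 rose and 2 fell (2 and 7 at an unadjusted p under 0.05, 2 and 3 with DESeq2). By edgeR 2.86% were higher and 5.71% lower, against 3.74% and 1.66% of all genes. A change above 0 was found in 12 and a change below 0 in 23, while 52.7% of all genes tested were above 0. In 16 of the 35 both Aged libraries lay below both Young libraries, and in 5 both lay above. The same shares over all genes are not given here, so these counts are no result about the list. The number called higher was 0 and the number lower 0 to 2 when 1 library at a time was left out. Pbx3 had 17.4 and 18.1 against 36.6 and 33.2 CPM, and Myb and Gfi1 fell, Myb with 330.1 and 318 against 262 and 233 CPM. The fall of Myb was -0.39 ± 0.078 on the log2 scale (edgeR adjusted p = 0.0021). Genes known from earlier work on aged stem cells rose in 27 of 48 (0 fell, 2 at an unadjusted p under 0.05 and 1 with DESeq2). That list was put together with such studies in mind and is no independent evidence of its direction, and without the second Young library 16 of it rose. Outside that list, Vldlr, the very low density lipoprotein receptor, had 8.82 and 10.2 against 51.4 and 56.7 CPM, Cldn5, a tight junction protein, 8.18 and 8.47 against 33.5 and 43.5 CPM, both higher. Within it, Enpp5 had 104 and 118 against 248 and 223 CPM. The log2 fold change of Vldlr was 2.5.

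Lists of RNA processing, protein folding and energy metabolism differed by small amounts. Splicing factors had 11 of 63 higher and 0 lower (24 and 1 at an unadjusted p under 0.05, 14 and 1 with DESeq2), with a median of 0.13. By edgeR 17.5% were higher, against 3.74% of all genes. Hnrnpa2b1, an RNA-binding protein, had 376 and 356 against 515 and 448 CPM, and Snrnp70, a component of the U1 particle, 103 and 105 against 133 and 135 CPM. Endoplasmic reticulum genes had 9 of 54 higher (16.7%) and 1 lower (1.85%), against 3.74% and 1.66% of all genes. Sdf2l1, a target of the unfolded protein response, had 29.5 and 30.5 against 45.7 and 52.9 CPM, Pdia3, a disulfide isomerase, 462 and 448 against 623 and 538 CPM, and Dnajb9, a co-chaperone, fell with 109.8 and 118 against 91 and 63.6 CPM. Genes of glycolysis, among them Ldha with 1111 and 1203 against 1461 and 1744 CPM and Pkm with 1155 and 1224 against 1466 and 1698 CPM, had 5 of 44 higher and 1 lower, Vegfa (13 and 9 at an unadjusted p under 0.05, 9 and 6 with DESeq2). By edgeR 11.4% were higher and 2.27% lower, against 3.74% and 1.66% of all genes. Of these 44 genes 23 had a change above 0 and 21 below, and the median was 0.071, or -0.037 without the first Young and -0.039 without the second Aged library. Nuclear oxidative phosphorylation genes had 7 of 79 higher and 0 lower (47 and 0 at an unadjusted p under 0.05, 20 and 0 with DESeq2). By edgeR 8.86% were higher, against 3.74% of all genes.

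For short genes these shifts touch the difference between the Aged duplicates. Cytosolic ribosomal proteins had 1 higher and 1 lower of 83 and a median of 0.23, and their summed level was 37327 and 42009 CPM in the Young and 41055 and 50437 CPM in the Aged libraries, so that the first Aged library lay below the second Young library. After a correction for GC content and gene length the median was 0.11, and that of oxidative phosphorylation genes went from 0.25 to 0.11. Splicing, endoplasmic reticulum and oxidative phosphorylation genes had 0 calls with the 4 HSC libraries alone. Without the first and without the second Young library, 0 and 0 splicing, 3 and 3 endoplasmic reticulum and 1 and 0 oxidative phosphorylation genes were higher. Without the first and without the second Aged library the numbers, in the same order of lists, were 4 and 5, 8 and 5, and 17 and 0. The part of the length difference in these medians was not tested further.

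**Figure D5:**
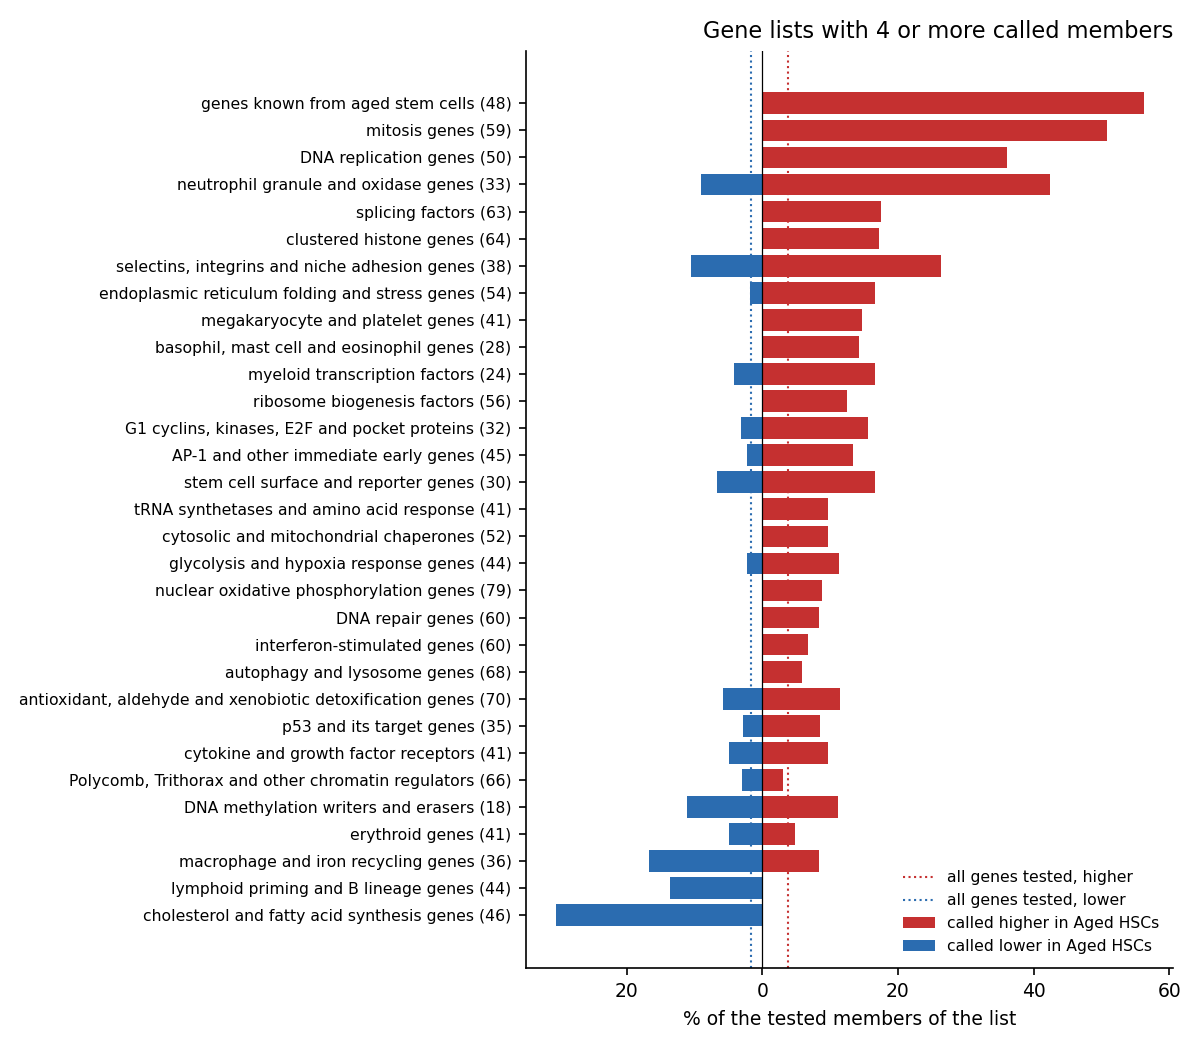
Share of tested members called in each gene list with 4 or more calls. Bars to the right give the percentage called higher and bars to the left the percentage called lower in Aged HSCs, the number of tested members stands in brackets, and dotted lines give the shares over all genes tested (3.74% and 1.66%). Mitosis genes reach 50.8% higher and cholesterol and fatty acid synthesis genes 30.4% lower, while DNA methylation genes reach 11.1% on both sides.

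The age change in HSCs was set against the mean age change over MPP1 to MPP4. Their libraries are separate, but may come from the same pooled marrow as the HSCs of each age. Of the 529 genes higher in HSCs, 456 (86.2%) had a change above 0 in MPPs, against 44.5% of all genes tested. Of the 235 lower genes, 224 (95.3%) had a change under 0 there, against 54.8% of all genes. The median change of the higher genes was 0.85 in HSCs and 0.47 in MPPs, and that of the lower genes -0.61 and -0.39. The genes were chosen by their HSC values, which by itself makes the HSC medians larger.

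The difference itself, HSC change minus MPP change, was more positive in 271 genes (1.91%) and more negative in 155 genes (1.10%). Among the neutrophil genes it was more positive in 14 of 33. Camp, for example, changed by 2.93 in HSCs and -1.01 in MPPs, a difference of 3.94 ± 0.37 (edgeR adjusted p = 8.74e-07), and Gpx3 by 2.16 and -1.03, a difference of 3.19 ± 0.29 (edgeR adjusted p = 8.19e-07). Jam2 changed by 1.62 and -0.77 (difference 2.39 ± 0.27, edgeR adjusted p = 3.66e-05), Sdpr by 1.91 and -0.73, and Vwf by 0.92 and -0.49. These genes rose in HSCs while their mean change in MPPs was under 0. In the mitosis list 2 of 59 genes changed more in HSCs, one of which was Mki67 (difference 2.07 ± 0.28, edgeR adjusted p = 9.43e-05), and the median changes were 0.62 in HSCs and 0.51 in MPPs. For cholesterol genes the medians were -0.33 and -0.30, and Acat2 was the 1 gene of 46 with a difference, -0.47 ± 0.080 (edgeR adjusted p = 9.56e-04). Cdkn1a changed by 0.55 in HSCs and -0.76 in MPPs (difference 1.303 ± 0.14, edgeR adjusted p = 6.82e-06). Hes1 fell less in HSCs than in MPPs, with -0.61 against -2.01. Among genes with a more negative difference, Kcnk12, a potassium channel, fell in HSCs with 23.7 and 24.1 against 6.88 and 8.64 CPM, and Endod1 had 12.5 and 13.9 against 6.96 and 8.31 CPM. Phgdh and Shmt1, enzymes of serine and glycine metabolism, had changes of -0.28 and -0.11 in HSCs, neither past the threshold, and 0.41 and 0.56 in MPPs.

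Some of the genes with the widest separation stood in no pathway list, though Gpr183, Rorb and Sbspon are in the list known from aged stem cells. Gpr183, an oxysterol receptor that guides cell migration, had 1.21 and 0.978 CPM in the Young and 34.2 and 30.3 CPM in the Aged libraries, a log2 fold change of 4.88 ± 0.38 (edgeR adjusted p = 2.49e-08). Tmem215, a membrane protein, had 0 and 0.652 against 16.6 and 19.1 CPM, Mab21l2, known from eye development, 0.324 and 0.782 against 22.9 and 28.3 CPM, and Rorb, an orphan nuclear receptor, 0.971 and 0.456 against 24.1 and 15.3 CPM. Sbspon, a secreted protein, had 2.27 and 2.87 against 41.04 and 44.95 CPM. Each of these 5 genes was close to the floor or low in both Young libraries, and the ages did not overlap. Malat1, an abundant nuclear noncoding RNA, had 357 and 350.2 against 1333 and 1043 CPM. On the other side, Ebi3, a subunit of interleukin-27 and interleukin-35, had 98.7 and 114 CPM in the Young and 21.97 and 28.7 CPM in the Aged libraries, a log2 fold change of -2.06 ± 0.21 (edgeR adjusted p = 1.37e-06). Igf2bp2, an RNA-binding protein of fetal cells, had 44.03 and 37.9 against 7.51 and 8.11 CPM and Nrk, a Nik-related kinase, 17.6 and 22.6 against 3.75 and 3.62 CPM. Islr and Mtus1 had 26.5 and 29.3 against 6.802 and 8.71 CPM and 17.3 and 19.3 against 5.32 and 5.49 CPM. In these 5 genes both Aged libraries lay below both Young libraries.

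Motifs of the factor families that the study examined in open chromatin were searched in the promoter windows on both strands. The Stat letters TTCNNNGAA stood in 6.94% of 432 higher, 9.28% of 194 lower and 8.34% of all genes with a window. The cyclic AMP response element TGACGTCA stood in 3.704%, 3.61% and 3.42%. The AP-1 letters TGACTCA stood in 2.78%, 7.22% and 4.74%, and TGACTCAGC, the CNC form that contains them, in 3 higher, 0 lower and 60 of all genes. These windows do not reach enhancers, and a missing match says only that the letters are not in the window.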

How the data were processed

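The deposited table holds raw read counts per gene, which the authors made from amplified, full-length RNA libraries with TopHat2 2.0.13, Bowtie2 2.1.0, the mm10 genome and StringTie, per the submitters' processing notes and the study's methods. Whether strand was used in counting is not given in the sources used here. Another 32 columns of per-sample values were not used, and 27 gene names that a spreadsheet had turned into dates (0.188% of counts) were left out of naming.

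Counts were normalized with TMM and tested with the quasi-likelihood test of edgeR 4.0.16 (R 4.3.3) on all 32 libraries in 16 groups. Genes were kept by filterByExpr, which left 14154 of 24421. The Benjamini-Hochberg adjusted p threshold was 0.01, the level of the study. The residual degrees of freedom were 16 and the common biological coefficient of variation was 0.113. The difference between HSCs and MPPs was a contrast in the same fit. Errors of fold changes are standard errors. Samples were grouped by the age and fraction in the labels, and the steps were tested on simulated data.

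Alternatives were DESeq2 1.42.0, its size factors, no filter, a replicate block, offsets for GC content and gene length (14001 genes with values), the 4 HSC libraries alone, leaving out each HSC library, other thresholds and stricter lineage programs. Named genes were the 12 largest changes in each direction with at least 5 CPM and no overlap, the 8 smallest p in each direction of the HSC minus MPP contrast under the same limits, up to 3 genes per direction with the smallest p in each of 52 gene lists (or the 2 most abundant where fewer than 2 were called), the sorting antigens, Selp and Clu, and cell type markers. Every other gene named was chosen after its values were seen. Some genes that this rule or the lists take in are not reported here. Members and lists were chosen with earlier results of these data known, so lists are described by counts and medians and not tested. Gene positions are from GENCODE (GRCm38) and promoter windows from RefSeq.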

Additional observations from a re-analysis of the deposited data

Results flagged for a closer look

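For these genes the age change in HSCs differed from the mean age change in MPP1 to MPP4 by the test of the difference itself (edgeR adjusted p under the threshold of 0.01). Values are HSC change minus MPP change on the log2 scale. No cause was tested.

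Among neutrophil genes the difference was 3.94 for Camp, 0.86 for Csf3r, 1.84 for Itgam, 2.99 for Ltf, 3.33 for Ngp, 0.91 for Prtn3, 2.92 for S100a8 and 3.12 for S100a9. Among platelet and adhesion genes it was 1.27 for Alcam, 2.39 for Jam2, 2.18 for Plek, 2.65 for Sdpr and 1.41 for Vwf. In the cell cycle lists it was 1.303 for Cdkn1a, 1.04 for Cdkn2c, 0.69 for Mcm10 and 2.07 for Mki67. Among metal-binding, peroxide-removing and stress genes it was 2.19 for Mt1, 5.54 for Mt2, 3.19 for Gpx3, 1.41 for Gadd45g and 2.61 for Malat1. Among receptors, transcription factors and signalling genes it was 5.14 for Gpr183, 1.45 for Cebpd, 1.26 for Id2, 1.402 for Hes1, 0.76 for Smad7 and 1.19 for Vldlr. The remaining positive differences were 4.53 for Chil3, 3.11 for Cldn5, 1.54 for Cpa3, 1.06 for Enpp5, 2.01 for Klrb1c, 3.72 for Mfsd2b, 0.70 for Nkg7 and 3.92 for Sbspon. A smaller rise in HSCs gave -0.998 for Aldh1a1. Falls in HSCs that exceeded the change in MPPs gave -0.47 for Acat2, -0.34 for Cat, -1.22 for Endod1, -1.27 for Kcnk12 and -0.98 for Satb1. Genes that did not pass the test in HSCs but differed had 1.88 for Klf1, -0.69 for Phgdh and -0.67 for Shmt1.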

How the results depend on the processing

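In the order higher, lower, difference from MPPs more positive and more negative, the main counts were 529, 235, 271 and 155. DESeq2 gave 936, 451, 828 and 284 genes. A threshold of 0.05 gave 1032, 554, 683 and 483, while asking also for an absolute log2 fold change of 1 gave 214, 45, 162 and 9. Offsets for GC content and gene length gave 605, 406, 312 and 412. The 4 HSC libraries alone gave 161 higher and 46 lower. Leaving out 1 HSC library gave 194 to 469, 135 to 372, 88 to 233 and 101 to 385, and the lowest counts came without a Young library. With the replicate number as a block the counts were 519, 239, 281 and 180, but the numbers did not pair the libraries, since same-numbered Young and Aged HSC libraries deviated together with a correlation of 0.070 across genes. DESeq2 size factors and no filter stayed within 1.5 times of every main count. Of the 141 called genes with values in the text, 76 lost the call with the 4 HSC libraries alone, 31 to 49 without 1 library, and at most 6 under any other alternative. The cause of these losses was not tested.

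The log2 fold change reversed its sign in genes that were not called. C1qb had -0.49 to 0.059 without 1 library. Egr1 had -0.014 with no filter, -0.0020 with the replicate block, -0.037 with the HSC libraries alone and -0.13 to 0.075 without 1 library. Gata1 had -0.17 to 0.52 without 1 library. Il7r had 0 to 4.895 without 1 library. Klf1 had -0.12 to 0.27 without 1 library. Mecom had -0.34 to 0.16 without 1 library. Mpo had -1.02 to 0.016 without 1 library. Prg2 had -0.063 to 0.48 without 1 library. Procr had -0.0080 to 0.20 without 1 library. With stricter lineage programs the numbers higher and lower were 16 and 2 of 207 for GMP, 20 and 3 of 260 for MEP, and 31 and 14 of 673 for CLP. They were 2 and 0 of 15 for MPP2, 2 and 0 of 51 for MPP3, and 1 and 2 of 78 for MPP4. In this order the shares higher were 7.73%, 7.69%, 4.61%, 13.3%, 3.92% and 1.28%, against 3.74% of all genes. The shares lower were 0.966%, 1.15%, 2.08%, 0%, 0% and 2.56%, against 1.66%. With 2 libraries per age, changes of genes near the floor could not be sized.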
